A study of Homo sapiens with 6 samples.

Results

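The genes of the mitochondrial ribosome that carry MRPL or MRPS symbols were examined in NB4 cells, not treated (n.t.) or exposed to maltonis. A gene was taken if its symbol was MRPL or MRPS followed by a number and, optionally, a final letter, which gave 76 of the 23368 symbols listed: 47 MRPL symbols of the large subunit and 29 MRPS symbols of the small subunit. All 76 passed the filter on low counts and were among the 13209 genes tested. Mitochondrial ribosomal proteins of other names, pseudogenes and antisense genes were not members.

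NB4 is an established human cell line of acute promyelocytic leukemia, so that every value describes 1 line. Cells of the n.t. group received no compound, and those of the treated group received 10 µM maltonis, a small molecule whose effect on chromatin and gene expression the study examined; both were harvested at 24 h. Total RNA was sequenced from 3 biological replicates per group. The 6 libraries held 18492154 to 38205483 counts, the replicate 1 libraries of both groups being the shallowest (19385279 in n.t., 18492154 in maltonis). Replicate 1 of both groups also were named with another code letter (A) than replicates 2 and 3 (B), and what this code stands for is not stated. Of 9 promyelocyte markers, 8 were above 3 counts in every n.t. library and 9 in every maltonis library. The markers' summed level was 14400 to 16900 CPM (counts scaled to a common library size) in n.t. and 8940 to 9490 CPM in maltonis libraries, most of it from MPO (12900 to 15500 and 7300 to 7550 CPM). MPO, CD33, ANPEP, CEBPE and SPI1 were lower in every maltonis library than in any n.t. library. CTSG (103 to 113 CPM in n.t., 539 to 576 CPM in maltonis), ELANE, PRTN3 and AZU1 were instead higher in every maltonis library. The 3 erythroid markers were at 0 in all libraries, and the 3 T cell markers summed to 43.4 to 45.6 CPM in n.t. and 15 to 15.9 CPM in maltonis libraries. Almost all of the T cell sum came from CD3D, with CD3E and CD3G at 0.799 CPM or less. Epithelial markers summed to 18.6 to 20.4 CPM in n.t. and 15.6 to 16.7 CPM in maltonis libraries, mostly from EPCAM. B cell and fibroblast markers summed to at most 3.25 and 0.826 CPM. The part of these shifts in the results was not tested.

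Mitochondria hold their own ribosome, which translates the few mRNAs of the mitochondrial genome, all coding for subunits of the respiratory chain and of ATP synthase. Its rRNAs are encoded in the mitochondrial DNA, whereas its proteins are made from nuclear genes, translated in the cytosol and imported. Some of these proteins descend from those of bacterial ribosomes, and others were added during the evolution of mitochondria. Mitochondrial transcripts themselves were not analysed here.

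Maltonis-treated cells had lower expression of 34 of the 76 genes and higher expression of 9, while 33 did not pass the test (edgeR's quasi-likelihood test, Benjamini-Hochberg adjusted FDR under 0.01). Over all genes tested, 32.1% were lower and 31.9% higher by the same rule, so that the genes called lower made up a larger share of the members (44.7%) and those called higher a smaller one (11.8%). The decreases reached 15.2-fold for MRPS2, whereas the largest increase was that of MRPL34, with a log2 fold change (maltonis over n.t.) of 0.91. The median log2 fold change of the members was -0.26, beside 0.01 over all genes tested. In RNA from whole cultures, fewer cells with a transcript and less of it per cell cannot be told apart.

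Large and small subunit genes gave similar counts. Of the 47 MRPL genes, 21 were lower, 5 higher and 21 neither, and their log2 fold changes ran from -3.77 to 0.91 with a median of -0.21. Of the 29 MRPS genes, 13 were lower, 4 higher and 12 neither, with a range from -3.92 to 0.66 and a median of -0.27. Both medians depend on the scaling: they were -0.09 and -0.15 with scaling by total counts and -0.12 and -0.19 with the upper quartile. The difference between the subunits was not tested, since genes are not replicates of a condition. MRPS18A and MRPS30 are placed in the large subunit by structural work in spite of their names, and counted there the medians were -0.20 and -0.29. Without MRPS36 as well, which is no longer counted as a ribosomal protein, the small subunit had 26 genes, 13 of them lower and 3 higher, and a median of -0.34. The spread was also alike, with an SD of the log2 fold changes of 0.96 for MRPL and 0.97 for MRPS genes, beside 1.27 over all genes tested.

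**Figure D1:**
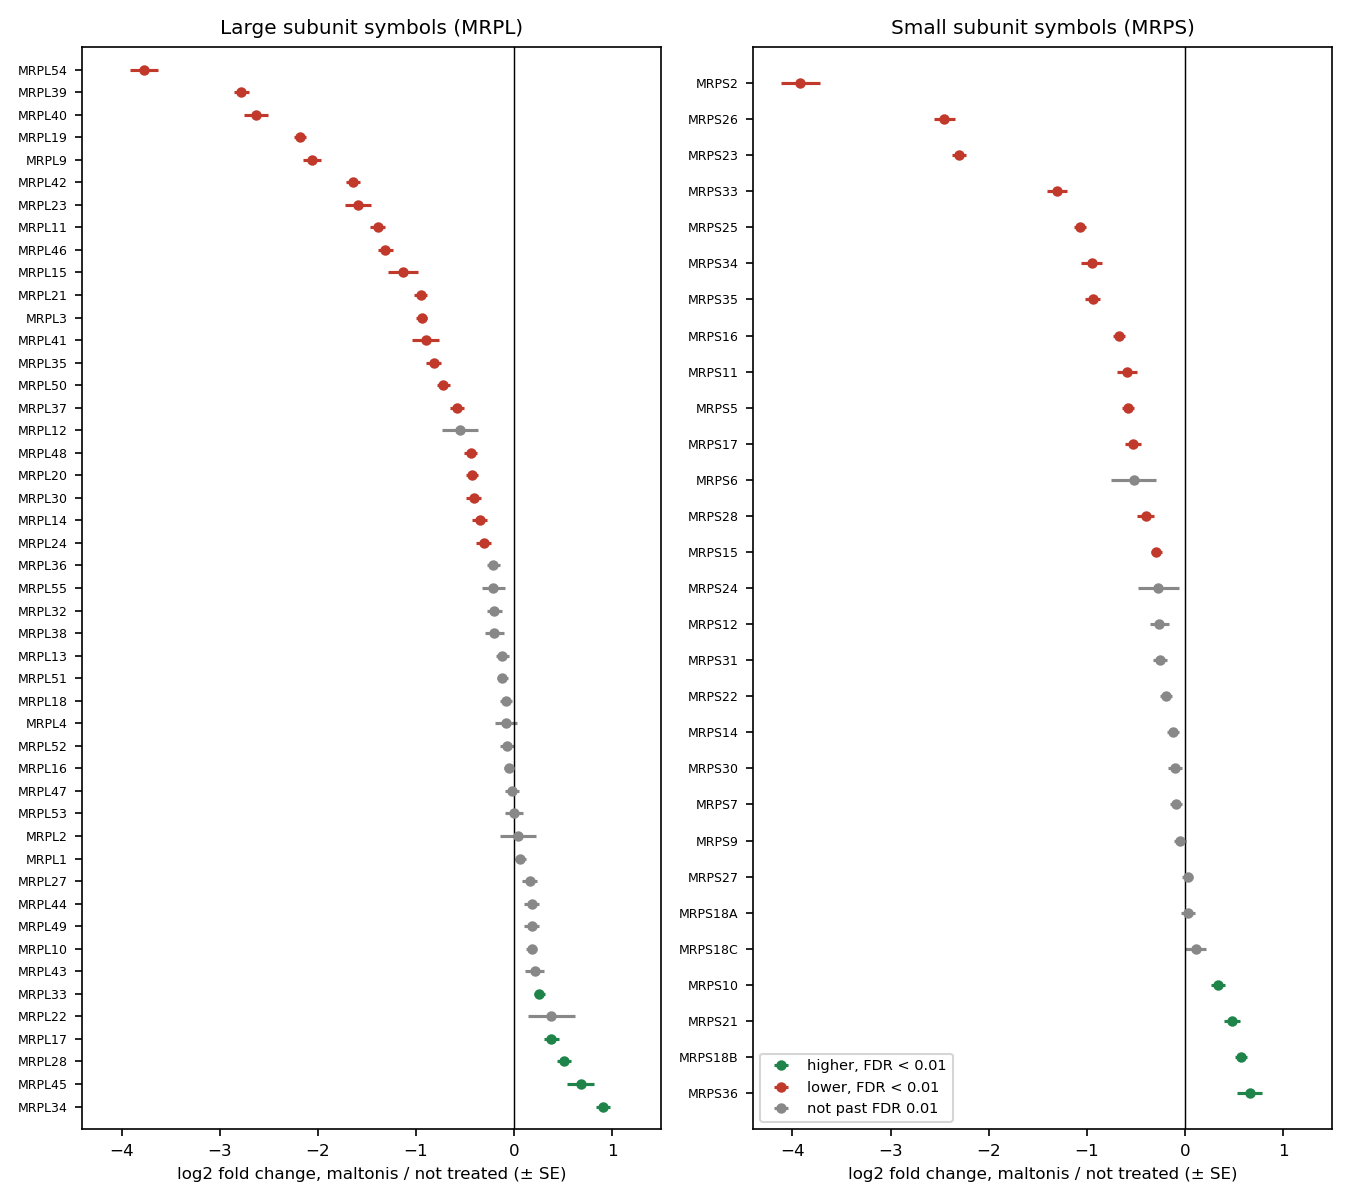
Log2 fold change (maltonis over n.t., x axis) of each of the 47 MRPL (left) and 29 MRPS genes (right), with bars for the standard error derived from the test statistic, 3 libraries per group. Red and green points passed an FDR of 0.01; a tail of decreases reaches -3.77 and -3.92, while no gene exceeds 0.91 on the other side.

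In the CPM of the single libraries, all 3 maltonis libraries lay below all 3 n.t. libraries for 41 members, which is the case for 37.8% of all genes tested. They lay above them for 11 members, beside 38.8% of all genes tested, and the groups overlapped for 24. All 34 genes called lower and all 9 called higher were free of overlap. Their direction within code A and within code B follows from this and is no separate check. The median log2 fold change was -0.27 within code A and -0.19 within code B for MRPL genes, and -0.29 and -0.27 for MRPS genes.

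The summed level of each subunit was lower in every maltonis library than in any n.t. library. The MRPL genes together made 4458, 4483 and 4251 CPM in n.t. and 3504, 3422 and 3454 CPM in maltonis libraries. The MRPS genes together made 2577, 2491 and 2356 CPM in n.t. and 1807, 1809 and 1836 CPM in maltonis libraries. The maltonis mean was 78.7% of the n.t. mean for MRPL (3460 ± 41.5 against 4397 ± 127, SD, n = 3) and 73.5% for MRPS (1817 ± 16 against 2474 ± 112). The ratio of the MRPL to the MRPS sum was 1.73, 1.8 and 1.8 in n.t. and 1.94, 1.89 and 1.88 in maltonis libraries, again without overlap. Sums of CPM are set mainly by long and highly expressed genes and give no number of ribosomes.

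By the study's criteria (FDR under 0.01, a change of more than 2.5-fold and an RPKM, reads scaled to exon length and library size, above 10 in the higher group), 11 members were downregulated, 8 MRPL and 3 MRPS genes, and none was upregulated. Over all genes tested 3.17% were downregulated and 1.56% upregulated by these criteria, beside 14.5% and none of the members. The RPKM criterion excludes genes of low level, and 68 of the 76 members exceeded it in n.t. cells. Without it, at the same FDR and fold limit, 11 members were downregulated, and the share over all genes is not given. At a looser fold limit and the same FDR, also without it, 15 of 76 members and 1927 of 13209 genes fell by more than 1 on the log2 scale. As the fold limit differs too, these counts cannot be set beside the shares above. Shares at a matched level were not computed. The 11 genes accounted for 60.6% of the fall of the MRPL sum and 40.5% of that of the MRPS sum. Just inside the limits lay MRPL11 for the fold change (2.62-fold) and MRPL42 for the level (RPKM of 11), and just outside lay MRPL46 (2.48-fold, RPKM of 7.62) and MRPS33 (2.46-fold, RPKM of 8.75), the latter named after its values were seen.

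MRPS2, a small subunit protein of bacterial descent, fell most. It stood at 93.6, 95.4 and 83.0 CPM in n.t. and at 8.52, 5.40 and 4.44 CPM in maltonis libraries. The groups lay more than an order of magnitude apart on average, and the highest maltonis library was the shallow replicate 1. The log2 fold change was -3.92 ± 0.20 (SE, FDR = 4.32e-07), with -3.44 within code A and -4.15 within code B. The next 3 genes code for mitochondria-specific proteins of the large subunit. MRPL54 stood at 39.0, 34.0 and 29.8 CPM in n.t. and at 2.32, 2.74 and 2.38 CPM in maltonis libraries. MRPL39 stood at 37.6, 37.0 and 39.1 CPM in n.t. and at 5.47, 5.58 and 5.54 CPM in maltonis libraries. MRPL40, part of the central protuberance at the top of the large subunit, stood at 38.1, 36.7 and 35.8 CPM in n.t. and at 5.32, 5.25 and 7.21 CPM in maltonis libraries. These genes had nearly equal CPM in n.t. cells, and their treated libraries agreed within 1.11 CPM (SD, n = 3) or less. Their log2 fold changes were -3.77 ± 0.14 (FDR = 8.62e-08), -2.78 ± 0.076 (FDR = 2.78e-08) and -2.63 ± 0.12 (FDR = 2.92e-07).

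The sequences upstream of these 4 genes are shown because their transcripts fell most among the members. Each runs over the 150 bases before the annotated start in RefSeq (GRCh38.p14), 5′ to 3′ on the gene's strand, with capitals for the letters CCGGAAG or their complement, the core bound by ETS factors. Such a match was in this stretch of MRPL54 and MRPL40 and not in that of MRPS2 and MRPL39.
MRPS2, chr9:135500532-135500681, plus strand: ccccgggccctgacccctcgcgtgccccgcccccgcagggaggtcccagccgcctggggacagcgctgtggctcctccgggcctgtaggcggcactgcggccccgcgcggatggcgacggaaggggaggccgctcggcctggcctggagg
MRPL54, chr19:3762532-3762681, plus strand: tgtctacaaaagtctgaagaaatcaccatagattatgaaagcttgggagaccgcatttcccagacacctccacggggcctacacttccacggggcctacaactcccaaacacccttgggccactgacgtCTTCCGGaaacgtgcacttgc
MRPL39, chr21:25607482-25607631, minus strand: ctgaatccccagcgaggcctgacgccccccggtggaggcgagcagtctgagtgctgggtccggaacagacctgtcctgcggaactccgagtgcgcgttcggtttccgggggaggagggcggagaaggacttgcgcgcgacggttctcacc
MRPL40, chr22:19432395-19432544, plus strand: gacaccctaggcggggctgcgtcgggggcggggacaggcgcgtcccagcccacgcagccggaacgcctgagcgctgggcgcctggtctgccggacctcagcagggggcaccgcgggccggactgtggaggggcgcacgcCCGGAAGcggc

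The transcripts of MRPS26 and MRPS23, both coding for small subunit proteins without a bacterial counterpart, also fell. MRPS26 stood at 147, 127 and 114 CPM in n.t. and at 25.9, 23.4 and 21.7 CPM in maltonis libraries. MRPS23 stood at 100, 93.8 and 90.8 CPM in n.t. and at 19.1, 20.3 and 18.5 CPM in maltonis libraries. Neither gene's groups came near each other, and the log2 fold changes were -2.45 ± 0.11 (FDR = 2.39e-07) and -2.30 ± 0.072 (FDR = 4.56e-08).

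The remaining downregulated genes belong to the large subunit. MRPL19 and MRPL9 code for proteins of bacterial descent. MRPL19 stood at 153, 146 and 148 CPM in n.t. and at 32.0, 34.4 and 31.9 CPM in maltonis libraries (log2 fold change -2.18 ± 0.061, FDR = 3.14e-08). MRPL9 stood at 112, 99.5 and 92.0 CPM in n.t. and at 25.5, 23.0 and 24.5 CPM in maltonis libraries (-2.06 ± 0.089, FDR = 2e-07). They fell 4.55-fold and 4.17-fold. MRPL42, mitochondria-specific, stood at 185, 180 and 173 CPM in n.t. and at 54.5, 55.3 and 63.5 CPM in maltonis libraries (-1.64 ± 0.074, FDR = 2.5e-07). MRPL23, whose protein lines the exit of the tunnel through which the nascent chain leaves, stood at 132, 111 and 94.0 CPM in n.t. and at 40.6, 38.8 and 32.4 CPM in maltonis libraries (-1.59 ± 0.13, FDR = 8.19e-06). MRPL11, at the base of the stalk that receives translation factors, stood at 144, 136 and 120 CPM in n.t. and at 49.8, 52.2 and 50.6 CPM in maltonis libraries (-1.39 ± 0.077, FDR = 7.11e-07). None of these groups overlapped, although the n.t. libraries of MRPL23 differed among themselves more than those of the other genes. MRPL46, a further protein of the central protuberance, stood at 50.9, 48.5 and 47.7 CPM in n.t. and at 20.2, 20.7 and 18.4 CPM in maltonis libraries (-1.31 ± 0.074, FDR = 7.99e-07). The other 22 genes called lower had log2 fold changes between -1.30 and -0.29.

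**Figure D2:**
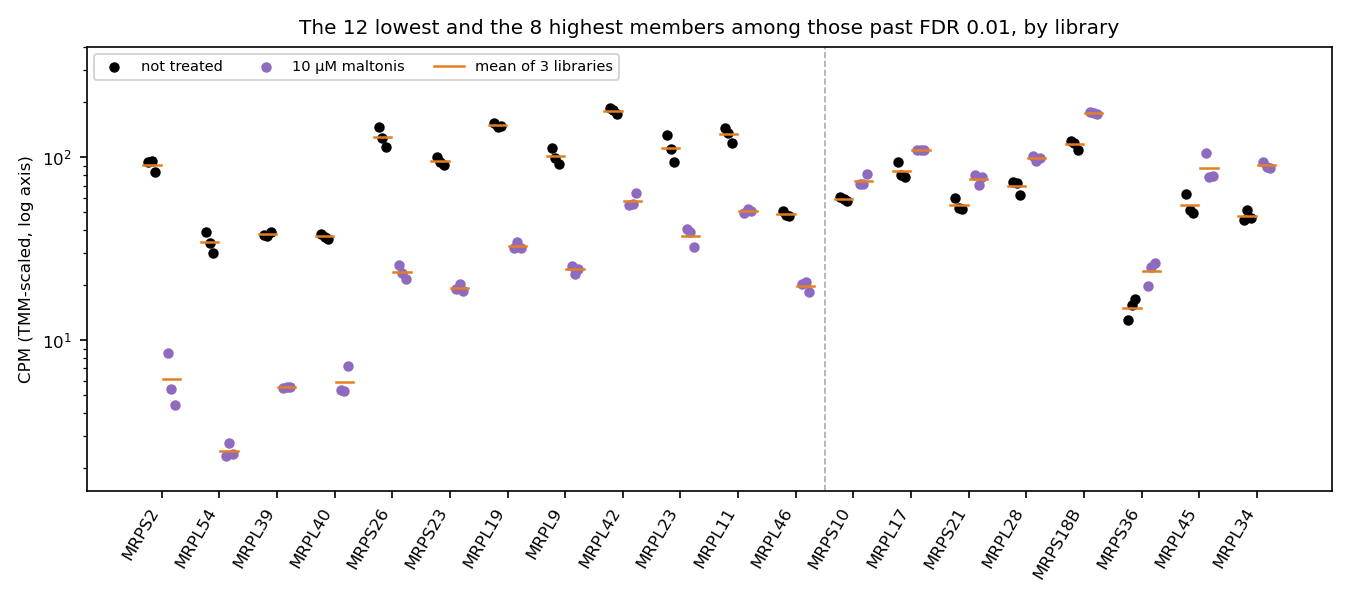
CPM in each library (points, log axis) and the mean of 3 libraries (orange lines) for the 12 members with the lowest and, right of the dashed line, the 8 with the highest log2 fold change among those past an FDR of 0.01. Black is n.t. and lilac 10 µM maltonis; the groups overlap for none of the 20 genes, and MRPL54 reaches the lowest levels, 2.32 to 2.74 CPM.

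The genes with higher expression changed less. MRPL34, a small basic protein of the large subunit with a bacterial counterpart, stood at 45.5, 51.4 and 46.4 CPM in n.t. and at 94.1, 88.6 and 87.8 CPM in maltonis libraries. The treated libraries exceeded every n.t. library by a wide margin, and the log2 fold change was 0.91 ± 0.069 (FDR = 4.37e-06). MRPL45, which holds the ribosome to the inner membrane at the tunnel exit, stood at 62.8, 51.6 and 49.4 CPM in n.t. and at 105, 77.9 and 79.3 CPM in maltonis libraries (0.68 ± 0.14, FDR = 0.0016). Replicate 1 was the highest library of MRPL45 in both groups. MRPS36, whose protein is now counted as a subunit of the 2-oxoglutarate dehydrogenase complex and not of the ribosome, stood at 12.9, 15.5 and 16.7 CPM in n.t. and at 19.7, 25.2 and 26.5 CPM in maltonis libraries (0.66 ± 0.13, FDR = 0.00178). Here replicate 1 was the lowest library of each group, and the call for MRPS36 was lost without maltonis replicate 2 (FDR = 0.0146) or 3 (FDR = 0.0151).

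The further increases were those of MRPL28 (0.51 ± 0.076, FDR = 0.000283), MRPS21 (0.48 ± 0.078, FDR = 0.00054), MRPL17 (0.38 ± 0.078, FDR = 0.00199) and MRPS10 (0.34 ± 0.07, FDR = 0.00208), all of bacterial descent. MRPL17 stood at 94.0, 80.1 and 77.7 CPM in n.t. and at 109, 109 and 110 CPM in maltonis libraries, so that the groups were separate by a narrower gap than for MRPL34. MRPS10 stood at 60.7, 59.0 and 57.3 CPM in n.t. and at 71.2, 71.5 and 80.5 CPM in maltonis libraries. Both calls were lost when single libraries were left out: without n.t. replicate 2 the FDR was 0.013 for MRPL17 and 0.0115 for MRPS10, and without maltonis replicate 3 it was 0.0115 for MRPS10. MRPL33 was the remaining gene called higher (0.26 ± 0.059, FDR = 0.00377) and is named outside the rule for named genes; its call was lost without n.t. replicate 2 or 3 or maltonis replicate 2 or 3.

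The MRPS18 genes, 3 paralogs related to a single bacterial protein, did not all pass the test. MRPS18B, of the small subunit, stood at 122, 120 and 110 CPM in n.t. and at 176, 174 and 173 CPM in maltonis libraries and rose (0.57 ± 0.059, FDR = 2.99e-05). MRPS18A, which sits in the large subunit, stood at 61.8, 58.5 and 52.7 CPM in n.t. and at 57.2, 59.1 and 60.2 CPM in maltonis libraries (0.03 ± 0.074, FDR = 0.725). MRPS18C stood at 9.32, 10.1 and 11.6 CPM in n.t. and at 10.2, 12.1 and 11.2 CPM in maltonis libraries (0.11 ± 0.11, FDR = 0.419). The groups overlapped for MRPS18A and MRPS18C and were apart for MRPS18B. The difference in change between the paralogs was not tested.

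The 33 members that did not pass the test had log2 fold changes between -0.55 and 0.38, and 27 of them lay within 0.25 of 0. Among them were genes whose replicate 1 libraries stood apart from the others; they were chosen after their values were seen. MRPL12, the stalk protein that contacts translation factors, stood at 66.5, 108 and 117 CPM in n.t. and at 61.2, 69.0 and 68.4 CPM in maltonis libraries. MRPS6 stood at 16.1, 28.6 and 31.1 CPM in n.t. and at 14.0, 19.5 and 19.5 CPM in maltonis libraries. MRPL22 stood at 19.3, 37.0 and 36.9 CPM in n.t. and at 32.0, 43.2 and 46.8 CPM in maltonis libraries. In each case n.t. replicate 1 was far below n.t. replicates 2 and 3. For MRPL12 and MRPS6 this made the groups overlap. For MRPL22 they overlapped because maltonis replicate 1 (32.0 CPM) lay below n.t. replicates 2 and 3. The log2 fold change of MRPL12 was -0.12 within code A and -0.71 within code B, that of MRPS6 -0.20 and -0.61, and that of MRPL22 0.72 and 0.28. With the code as a term of the fit the FDR was 0.000551 for MRPL12 and 0.000289 for MRPS6, both lower, and 0.00124 for MRPL22, which was higher. MRPL2 and MRPS24 showed the opposite order, with n.t. replicate 1 the highest library (59.6 CPM beside 41.5 and 36.5, and 23.0 CPM beside 16.8 and 13.7). Across the members the SE of the log2 fold change had a median of 0.074 and ran from 0.054 to 0.24.

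Compared per exon length, the members spanned a wide range of levels. Lengths summed the exons of all annotated transcripts of a gene (16393 bases for MRPL42, 4866 for MRPS18C). Levels and ranks in RPKM therefore depend on the annotation. In n.t. cells the median was 32.4 RPKM for MRPL and 19.3 RPKM for MRPS genes, and in maltonis-treated cells it was 26.7 and 16.2 RPKM. The lowest member in n.t. cells was MRPS18C (2.13 RPKM) and the highest MRPS35 (154 RPKM), a mitochondria-specific protein of the small subunit that fell to 80.2 RPKM and gave its place to MRPL18 (111 RPKM in maltonis-treated, 117 RPKM in n.t. cells). MRPS2 and MRPL54 left the middle of this range (36.8 and 34.2 RPKM) for its lower end (2.48 and 2.47 RPKM). An RPKM above 10 was found for 68 members in n.t. and for 59 in maltonis-treated cells. Across the 76 genes, which share libraries, depth and scaling, the n.t. level and the log2 fold change were hardly related (Spearman's rho = -0.06, Pearson's r = -0.09).

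**Figure D3:**
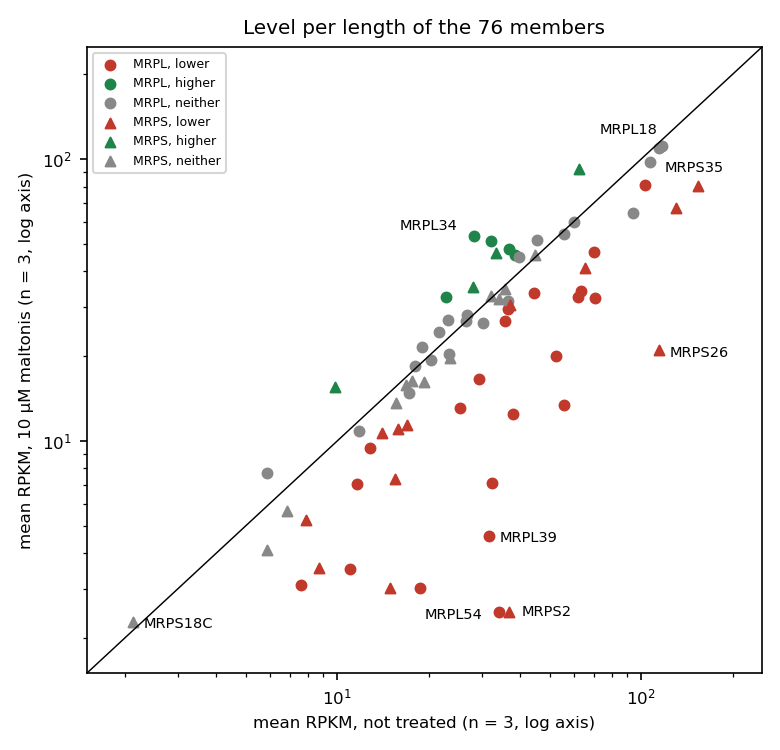
Mean RPKM of each of the 76 members in n.t. (x axis) and maltonis-treated cells (y axis), n = 3 libraries each, both axes logarithmic, with circles for MRPL and triangles for MRPS genes and the diagonal marking equal levels. Genes called lower lie below the diagonal from 7.62 to 154 RPKM in n.t. cells, and MRPS2 and MRPL54 are the farthest from it.

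Grouped by descent, 15 of the 27 mitochondria-specific members were lower and 2 higher, with a median log2 fold change of -0.58, and 19 of the 46 members of bacterial type were lower and 6 higher, with a median of -0.24. Mitochondria-specific genes of the large subunit had a median of -0.44 (9 of 17 lower, 1 higher) and those of the small subunit one of -0.95 (6 of 10 lower, 1 higher). The last was MRPS18B, which is kept here among the mitochondria-specific proteins although it is related to a bacterial one. For bacterial-type genes the medians were -0.20 in the large subunit (12 of 30 lower, 4 higher) and -0.28 in the small subunit (7 of 16 lower, 2 higher). By place in the large subunit, 1 of 4 genes listed for the stalk (MRPL11) and 3 of 8 listed for the central protuberance were lower (MRPL40, MRPL46 and MRPL48). Of 6 genes listed for the tunnel exit, 2 were lower (MRPL23 and MRPL24) and 2 higher (MRPL17 and MRPL45). The lists by place were written by hand and may lack proteins at these places, and MRPL54 (-3.77) was in none of them. All numbers by descent and by place are counts without a test between classes, beside 32.1% lower and 31.9% higher over all genes tested.

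The other genes of mitochondrial gene expression were taken from lists written by hand. Of 7 mitoribosomal proteins with other symbols, 4 were lower (57.1%) and none higher, beside 32.1% and 31.9% of all genes tested. CHCHD1, of the small subunit, stood at 55.4, 59.4 and 59.3 CPM in n.t. and at 11.1, 12.4 and 11.7 CPM in maltonis libraries (log2 fold change -2.30 ± 0.076, FDR = 5.69e-08). GADD45GIP1 (-2.25 ± 0.14, FDR = 1.43e-06) and ICT1, a peptidyl-tRNA hydrolase built into the large subunit (-1.44 ± 0.11, FDR = 3.69e-06), were lower as well, and so was PTCD3 (-0.34 ± 0.056, FDR = 0.000504). These 7 genes had a median of -0.34.

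Of 25 factors for ribosome assembly and rRNA maturation, 11 were lower (44%) and 6 higher (24%). ERAL1, a GTPase that chaperones the small subunit rRNA, stood at 54.8, 71.0 and 77.5 CPM in n.t. and at 6.40, 7.93 and 7.92 CPM in maltonis libraries, and its log2 fold change of -3.18 ± 0.15 (FDR = 2.88e-07) was near those of MRPS2 and MRPL54. C1QBP (-0.96) and FASTKD2 (-0.87) were the next lower ones, while the largest increase in this list was that of GTPBP10 (0.86). Of 17 translation factors and activators, 6 were lower (35.3%) and 5 higher (29.4%), shares near those of all genes tested (32.1% and 31.9%). TACO1, an activator of the translation of a cytochrome c oxidase subunit, stood at 28.4, 27.3 and 25.9 CPM in n.t. and at 1.96, 2.45 and 2.41 CPM in maltonis libraries (-3.56 ± 0.11, FDR = 4.13e-08). The elongation factor TSFM fell by 1.29 on the log2 scale, and the release factor MTRF1 rose by 1.18. Of 11 genes for mitochondrial transcription and RNA processing, 6 were lower (54.5%) and 2 higher (18.2%), among them TFAM, which packages the mitochondrial DNA and starts its transcription (-0.79), HSD17B10, a subunit of the RNase that processes mitochondrial tRNAs (-0.79), and MTERF (0.87). Over these 60 genes, 27 were lower (45%) and 13 higher (21.7%). Of the 76 cytosolic ribosomal protein genes tested, 8 were lower and 8 higher (10.5% each), below the 32.1% and 31.9% of all genes tested, with a median of 0.05.

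**Figure D4:**
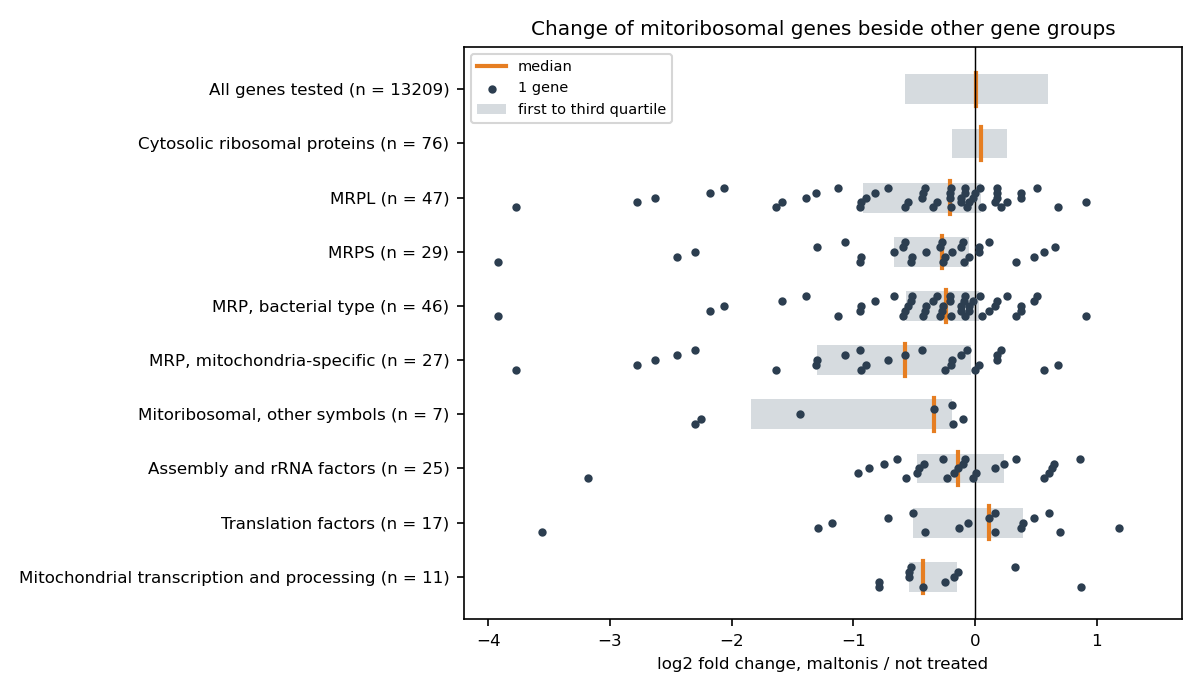
Log2 fold changes (maltonis over n.t., x axis) of the members by subunit and by descent, of other mitochondrial gene expression lists, of cytosolic ribosomal proteins and of all genes tested, with n as the genes tested. Points are genes (not drawn for the top 2 rows), grey bars run from the first to the third quartile and orange lines are medians; the medians are -0.21 for MRPL, -0.27 for MRPS and 0.05 for cytosolic ribosomal protein genes.

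Many MRP genes start close to the start of a gene on the other strand, so that a stretch of promoter can serve both. In GENCODE 29 such a neighbour within 1000 bases was found for 27 members, forming 26 pairs, in 25 of which both genes were tested. In some pairs the genes run away from each other. In others their 5′ ends overlap, as for MRPL9 with OAZ3, MRPL14 with TMEM63B and MRPS18B with PPP1R10. Both kinds were counted together. The neighbour was lower in 3 pairs (12%) and higher in 12 (48%), beside 32.1% and 31.9% of all genes tested. Of the 10 pairs whose member was lower, the neighbour was also lower in 1 and higher in 6. MRPL46 and MRPS11, whose starts are 34 bases apart, were the pair in which both were lower (-1.31 and -0.59). MRPL21 fell by 0.95 on the log2 scale, and IGHMBP2, a helicase gene that starts 7 bases away, rose from 46.6 to 94.7 CPM (1.02, FDR = 3.35e-06). MRPS34 (-0.95) and EME2 (1.94) start 52 bases apart, and MRPL30 (-0.41) and MITD1 (0.35) 21 bases apart. Some of the higher neighbours had low levels: mean CPM in n.t. and maltonis were 1.91 and 7.16 for EME2. They were 0.476 and 3.54 for PNPLA7, beside MRPL41, and 0.364 and 1.92 for OAZ3. MRPS18B and PPP1R10 were the pair in which both were higher (0.57 and 0.81). Pairs were named after their values were seen. MRPL9 and OAZ3, also called in opposite directions, share 333 exon bases, and 27 members in all share at least 100 exon bases with another gene of this annotation. How reads on shared bases were counted is not stated, so that the counts of these members are less certain.

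**Figure D5:**
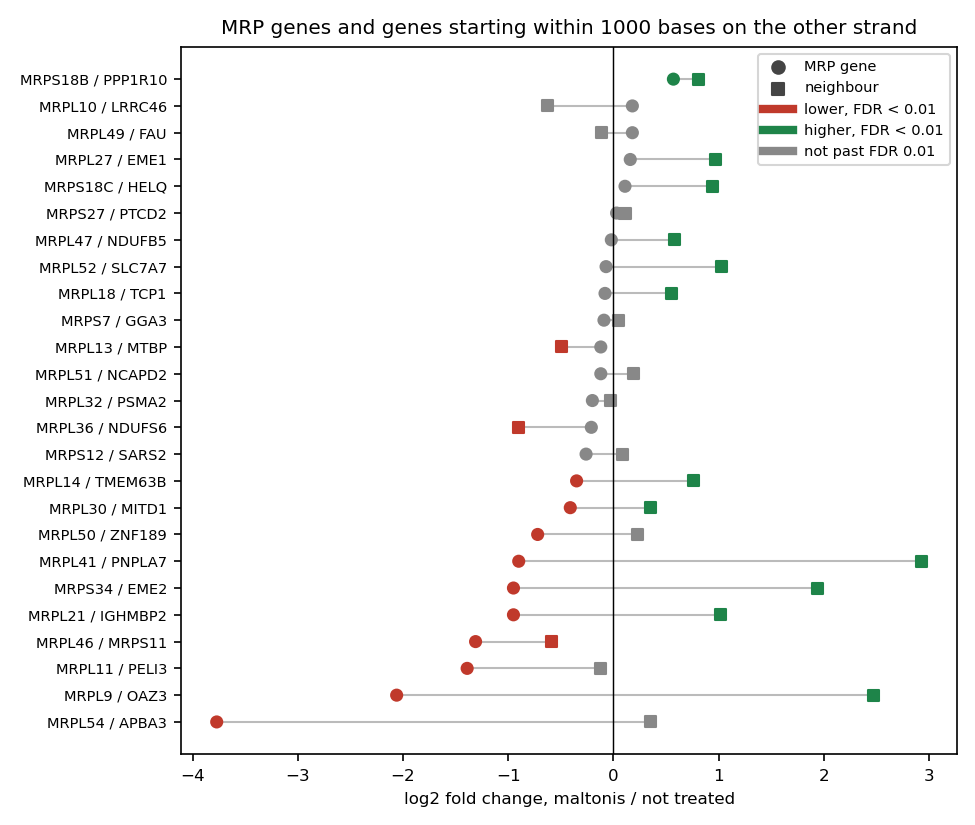
Log2 fold change (maltonis over n.t., x axis) of the member (circle) and of the gene starting within 1000 bases on the other strand (square) in 25 pairs, with colours for the call at an FDR of 0.01. In 6 pairs the member is red and its neighbour green, and MRPL46 with MRPS11 is the pair with both red.

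Promoter sequence was examined as a further feature that the choice of members did not use. RefSeq promoters of 300 bases (250 before the start and 50 after it) were matched for 67 of the 76 members by symbol, and both strands were searched. The letters CCGGAAG of ETS factors were in 28 of these 67 promoters (41.8%), beside 10.7% of all 27305 promoters, and AAGATGGC, the core bound by YY1, was in 20 (29.9%), beside 3.03%. Matches of AAGATGGC lay close to the start: 15 of 21 began after it, at a median position of +10, whereas CCGGAAG had a median position of -22. CACGTG, the E-box to which MYC and related factors bind, was in 6 member promoters (8.96%), beside 7.43% of all promoters, and CGCATGCG, bound by NRF1, in 3 (4.48%), beside 2.19%. All 27305 promoters include those of genes not tested here, whereas every member was tested. The shares among promoters of tested genes only are not given.

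Set against the calls, CCGGAAG was in 11 of 29 promoters of members called lower, 4 of 8 called higher and 13 of 30 called neither. AAGATGGC was in 4 of 29, 3 of 8 and 13 of 30, respectively, and in 1 of the 10 downregulated members with a promoter. CACGTG was in 1 of 29 promoters of genes called lower, 1 of 8 called higher and 4 of 30 called neither, and in none of the 10 downregulated ones. These are counts of letters, not of bound sites, and were not tested. AAGATGGC lay just after the start in members called lower (MRPL42 at +9, MRPL20 at +16) and neither (MRPL38 at +7, MRPS27 at +17) as well as higher. Its place there was thus not particular to genes with higher expression. The windows of 30 bases around it in the promoters of MRPL45 and MRPS18B, both called higher, are shown as examples. The match is in capitals and begins at base +14 and +24 of the annotated transcript (RefSeq, GRCh38.p14).
MRPL45, chr17:38297170-38297199, plus strand: tttgcgggaacAAGATGGCagcccccatac
MRPS18B, chr6:30617852-30617881, plus strand: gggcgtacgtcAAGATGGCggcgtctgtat
For comparison with the genes that fell, the 150 bases before the start of MRPL34 and MRPL45, the members with the largest increases, are given in the same way, with the CACGTG of MRPL45 in capitals.
MRPL34, chr19:17292423-17292572, plus strand: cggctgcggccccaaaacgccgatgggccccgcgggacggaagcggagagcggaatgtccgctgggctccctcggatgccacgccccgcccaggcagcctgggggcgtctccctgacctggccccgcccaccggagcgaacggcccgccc
MRPL45, chr17:38297018-38297167, plus strand: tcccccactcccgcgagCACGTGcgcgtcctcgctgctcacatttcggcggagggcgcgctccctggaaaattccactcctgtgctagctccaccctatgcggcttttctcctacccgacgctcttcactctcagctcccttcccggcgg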

How the data were processed

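RNA-seq libraries of NB4 cells, 3 left n.t. and 3 exposed to maltonis (10 µM), were used. The authors deposited 1 table per library with the count of reads on each gene symbol, not normalized. The submitters' processing notes name TopHat, Bowtie2, HTSeq and hg19. The annotation and strand setting are not given in the sources used here, so that paralogs, overlapping and antisense genes are uncertain. The 6 libraries held 18492154 to 38205483 counts, and 3 counts were 0.0828 to 0.16 CPM. Replicates differed by more than sampling noise (chi-square per degree of freedom from 4.155 to 33.07).

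Counts were analysed with edgeR 4.0.16 (R 4.3.3): filterByExpr, TMM scaling and 1 quasi-likelihood fit over both groups with no covariate, adjusted by Benjamini-Hochberg over 13209 genes. FDR means this adjusted p. SE was derived as the size of the log2 fold change over the square root of the test's F statistic. Tests were checked on simulated counts. RPKM used the summed exon length of GENCODE 29, which is on another build, so none of its coordinates are given. Downregulation required a log2 fold change beyond 1.32 in size. Differences within a code used log2(CPM + 0.1). Alternatives were DESeq2 1.42.0, other scalings, filters, covariates and libraries left out. By rule the text names the 12 lowest and 8 highest members past the FDR, the MRPS18 paralogs, members past the criteria and the top 3 of each list of other genes. Any other gene named was chosen after its values were seen. The members and lists were chosen with earlier results of these data known.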

Additional observations from a re-analysis of the deposited data

How the results depend on the processing

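Under the alternatives run, 30 to 41 members were lower and 6 to 14 higher, beside 34 and 9, and no call changed its direction. The count of 14 higher members came from the libraries of code B alone. The downregulated members numbered 10 or 11 and the upregulated 0 in each case, and MRPL11 was the one lost, with scaling by total counts or by the upper quartile and in code B alone. Exon lengths linked to RefSeq, an alternative chosen after seeing the data, gave 11. Scaling by total counts moved the median of all genes up by 0.12 and gave medians of -0.09 for MRPL and -0.15 for MRPS; the upper quartile moved it by 0.09 and gave -0.12 and -0.19. Leaving out 1 library at a time gave medians from -0.29 to -0.20 for MRPL and from -0.33 to -0.21 for MRPS, and among the members named by rule it removed the calls of MRPS36 (log2 fold change of 0.59 or 0.55), MRPL17 (0.34) and MRPS10 (0.33 or 0.25), with FDR values from 0.0115 to 0.0151; of the others, MRPL24 and MRPL33 lost theirs. Calls gained were those of MRPL12, MRPS6, MRPL4 and MRPL43 without n.t. replicate 1, MRPL32 without n.t. replicate 3 and MRPL44 without maltonis replicate 1. The cause was not tested.

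Same-numbered libraries are not said to share a culture. Their deviations correlated by 0.458, 0.170 and 0.249 on log2(CPM + 1) and by 0.301, 0.0852 and 0.161 on edgeR's log CPM, and replicates 2 and 3 correlated better across numbers (0.286). The numbers were therefore not taken as a pairing. With a replicate block 38 members were lower and 11 higher, 11 were downregulated and the medians were -0.20 for MRPL and -0.27 for MRPS; no call was lost and MRPL12, MRPL22, MRPL43, MRPS12, MRPS31 and MRPS6 were gained. With the code as a term 41 were lower and 12 higher. With 3 libraries per group and 1 cell line, p-values cover the spread between these cultures.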
